A study of Mus musculus with 13 samples.

Results

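A set of 10 genes that build or relay the T cell receptor signal, or that set up the T lineage, were followed in bone marrow progenitors that overexpress OBF1. They are Thy1, Cd8a, Lat, Cd3e, Cd3g, Lck, Zap70, Gata3, Tcf7 and Bcl11b, and every probe set whose only gene symbol is one of them was used. This gave 17 of the 45037 probe sets on the array and covered 8 of the 10 genes. Lck and Tcf7 have no probe set with a single symbol in the platform annotation used here and were not measured.

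The cells are EPLMs (early progenitors with lymphoid and myeloid potential), sorted from bone marrow with a gate that included B220+, c-kit+, CD93+ and NK1.1-, from 3 wild type (WT) and 3 BCS mice of the cross B6CF1 x C57BL/6, all 7 weeks old. BCS mice carry a transgene in which the Eμ enhancer and a VH promoter drive an HA-tagged human cDNA of OBF1, the B cell coactivator of the Oct proteins, and WT mice do not carry it. The study notes activity of this promoter and enhancer pair in T cells as well, and it describes several transgenic lines without saying which one supplied the arrays. Each mouse gave 1 Mouse 430v2 array, so the samples are separate animals, and the 6 arrays limit the precision. Intensities are given on the authors' linear GCRMA scale, on which the median probe set of every array has a value of 20. Levels are compared for one probe set at a time, apart from sums over marker lists, in which the brightest probe sets weigh most.

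The T cell receptor has no enzymatic activity of its own. In T cells, the CD3 chains and the zeta chain (Cd247) carry its signal into the cell, where the kinase Lck, held close by the coreceptors CD4 and CD8, phosphorylates them and the kinase Zap70 binds. Zap70 then phosphorylates Lat, a membrane adaptor on which phospholipase C gamma and the exchange factors of Ras assemble. Gata3, Tcf7 and Bcl11b are transcription factors that act as a progenitor in the thymus takes on the T cell fate, downstream of Notch signals. Thy1 is a glycolipid-anchored surface protein that covers mouse thymocytes and T cells. B cells run the same relay with Syk, Blnk and Plcg2.

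Because OBF1 works through Oct proteins that bind the octamer, the DNA before the start of each gene was read from the RefSeq promoters (build GRCm38.p6, 250 bases before and 50 after each start). They cover 9 of the 10 genes with 13 promoters, and Thy1 has no entry. The following letters were searched on both strands. The octamer ATGCAAAT lies in 0 of the 13 promoters (1.74% of 32851 promoters) and the E-box CAGCTG in 4 (16.3%). The other E-box form CAGGTG lies in 7 (20.2%) and the GATA motif AGATAA in 1 (11.2%). With an octamer share this low, 0 of 13 does not set these promoters apart. The study describes its sites at Id2 and Id3 as octamer-like, and inexact or more distant sites were not searched. Promoters with CAGGTG belong to Cd3e, Cd3g, Lck, Zap70 and Tcf7, with Lck and Zap70 each counted more than once. CAGCTG reads the same on both strands, and the matches within a promoter did not overlap. The bases upstream of the start are shown for Lat and Cd8a, the genes of this group that moved in opposite directions and have an entry, and for Cd3g, a receptor chain whose level did not pass the test and whose promoter holds the most matches. Capitals mark matches to CAGGTG (read as CACCTG on this strand) and to AGATAA.

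Lat, chr7:126369569-126369818, minus strand: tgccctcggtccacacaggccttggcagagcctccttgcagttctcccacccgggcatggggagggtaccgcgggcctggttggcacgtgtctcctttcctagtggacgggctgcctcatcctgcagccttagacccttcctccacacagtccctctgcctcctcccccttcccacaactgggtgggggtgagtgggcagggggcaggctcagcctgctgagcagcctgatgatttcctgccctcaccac

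Cd8a, chr6:71373177-71373426, plus strand: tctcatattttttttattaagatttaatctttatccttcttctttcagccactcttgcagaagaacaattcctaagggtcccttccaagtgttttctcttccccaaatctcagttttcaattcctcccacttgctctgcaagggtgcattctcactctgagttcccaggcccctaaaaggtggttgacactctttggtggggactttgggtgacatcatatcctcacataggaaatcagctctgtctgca

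Cd3g, chr9:44980432-44980681, minus strand: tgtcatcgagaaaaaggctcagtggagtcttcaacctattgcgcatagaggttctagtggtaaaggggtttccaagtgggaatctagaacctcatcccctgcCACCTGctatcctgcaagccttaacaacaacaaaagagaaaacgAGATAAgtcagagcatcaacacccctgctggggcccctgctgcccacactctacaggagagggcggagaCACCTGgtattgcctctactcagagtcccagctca

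The Lat stretch and the Cd8a stretch hold no match, and 1 CAGCTG of Cd8a begins 2 bases before the start and runs past it. In Cd3g the E-box letters begin 148 and 35 bases before the start and the GATA letters 104 bases before it. The whole Lat promoter has a GC content of 65.7%, that of Cd8a 46.7% and that of Cd3g 54%, against a median of 52.7% over all promoters. These are letters only, and no binding was measured here.

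In BCS EPLMs the signalling adaptor Lat and the surface protein Thy1 rose, the coreceptor chain Cd8a fell, and Cd3e, Cd3g, Zap70, Gata3 and Bcl11b did not pass the test, with intensities mostly near the array median of 20 and with Cd3g at 131 in 1 WT mouse. The threshold for passing was limma's adjusted p under 0.05, with the Benjamini-Hochberg adjustment over all 45037 probe sets. Of the 17 probe sets, 2 rose, where 2.24% of all probe sets did, and 5 fell, where 3.25% did, and the 5 that fell belong to the 1 gene Cd8a. All 3 BCS mice lay above all 3 WT mice in 2 of the 17 (12.6% of all probe sets) and below them in 5 (11.2%). The median log2 change, BCS minus WT, was -0.10 over the 17 probe sets and 0.01 over all probe sets. Signal was low for many of them, with 6 of the 17 at or below 20 on all 6 arrays. The same held for 20077 of the 45037 probe sets. Of all probe sets, 11.8% passed at a mean intensity above 50 but 1.51% at 50 or below.

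Lat, the membrane adaptor of the T cell receptor, had intensities of 79.5, 163 and 102 in WT mice 1, 2 and 3 and of 587, 403 and 340 in BCS mice 1, 2 and 3. The genotypes did not overlap, and BCS mouse 1 was the highest. The change was 1.97 on the log2 scale (standard error, SE, of 0.30, 95% confidence interval 1.30 to 2.64, limma's adjusted p = 0.00563), which is 3.91-fold. An exact two-sided permutation test of the 6 values gave p = 0.1, the smallest that 3 against 3 mice allow. The call held when any 1 of the 6 arrays was left out (log2 change from 1.74 to 2.25). The study lists Lat, and also Usp2 and Hes1 named below, among genes deregulated in both EPLMs and large preB2 cells. That list comes from these same arrays, so the rises of Lat, Usp2 and Hes1 here are not independent evidence.

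Thy1 had intensities of 401, 898 and 599 in the WT mice and of 1917, 1616 and 1438 in the BCS mice. The groups did not overlap, with WT mouse 2 the highest of its group. The rise was 1.45 on the log2 scale (SE 0.26, 95% confidence interval 0.85 to 2.05, limma's adjusted p = 0.0143), or 2.74-fold, and the exact permutation p was 0.1. The call was lost in 3 of the 6 fits that left out an array, those without WT replicate 3 (limma's adjusted p = 0.0511), BCS replicate 1 (0.0508) and BCS replicate 2 (0.0531), while the log2 change ranged from 1.16 to 1.75.

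Cd8a, which encodes the alpha chain of the CD8 coreceptor, fell at all 5 of its probe sets. The brightest, 1444078_at, read 98.2, 102 and 343 in WT mice and 26.8, 27.9 and 14.6 in BCS mice. All BCS values lay close to the array median, and WT mouse 3 stood above the other WT mice. The log2 change was -2.71 (SE 0.47, 95% confidence interval -3.77 to -1.65, limma's adjusted p = 0.0110). With BCS values this near the median the size depends on the offset, and with an offset of 16 it was -2.13. Without WT replicate 3 it was -2.12 (limma's adjusted p = 0.00755), and the call held in all 6 fits with 1 array left out. The calls of Lat, Thy1 and Cd8a all ended when the test named in the study's methods was used with the Benjamini-Hochberg adjustment, and also with intensities floored at 20, unless the probe sets made constant by the floor were left out.

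A second Cd8a probe set above background, 1425335_at, read 73.7, 60.4 and 165 in WT mice and 18.2, 23.3 and 20.3 in BCS mice, with a log2 change of -2.09 (SE 0.34, limma's adjusted p = 0.00794). The groups were apart here too, and WT mouse 3 was again the highest. The other 3 read at most 22.0 on any array and gave log2 changes of -0.55, -0.53 and -0.92. The first of these, 1451673_at, lost its call without any 1 of the 6 arrays. WT mouse 3 was the highest array for 4 of the 5 probe sets. In mice CD8 alpha is also carried by some dendritic cells.

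Cd8b1, the gene of the other CD8 chain and the next gene to Cd8a on chromosome 6, read 16.3, 25.0 and 15.2 in WT mice and 10.6, 11.5 and 12.3 in BCS mice. The values did not overlap between genotypes but were dim, and the log2 change of -0.64 (SE 0.17, limma's adjusted p = 0.0741) did not pass. The coreceptor gene Cd4 had a log2 change of -0.74 (SE 0.23, limma's adjusted p = 0.121) and did not pass either.

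**Figure D1:**
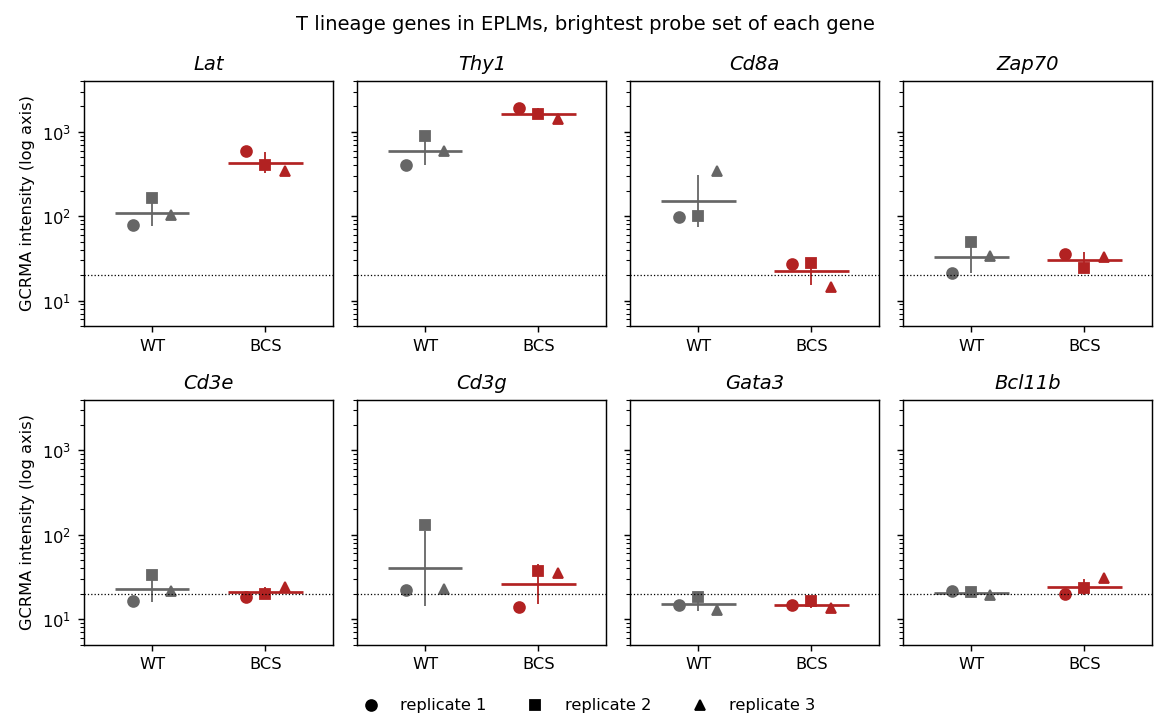
Intensity (log axis) of the 8 measured T lineage genes at the brightest probe set of each, 1 symbol per mouse (circle, square and triangle for replicates 1, 2 and 3), with bars for the mean and 1 SD of log2 intensity plus 1 and a dotted line at the array median of 20. Lat and Thy1 lie higher and Cd8a lower in BCS mice without overlap, and the other 5 genes overlap.

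Of the CD3 chains, Cd3e read 16.2, 33.0 and 21.8 in WT mice and 18.3, 19.97 and 24.3 in BCS mice. These values surround the array median, and the highest was that of WT mouse 2. Cd3e had a log2 change of -0.13 (SE 0.24, 95% confidence interval -0.67 to 0.41, limma's adjusted p = 0.846).

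Cd3g stood out by 1 mouse. It read 22.0, 131 and 23.0 in WT mice and 13.8, 36.8 and 35.1 in BCS mice, so that WT mouse 2 was above the other 5 mice and these 5 overlapped. The log2 change was -0.62 (SE 0.65, 95% confidence interval -2.08 to 0.84, limma's adjusted p = 0.695). Without WT replicate 2 it turned to 0.21 (limma's adjusted p = 0.863).

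The third CD3 chain gene, Cd3d, showed the same mouse on top, with 15.2, 96.4 and 21.4 in WT mice and 15.7, 38.7 and 30.3 in BCS mice. Its log2 change of -0.26 (SE 0.60, limma's adjusted p = 0.884) became 0.53 without WT replicate 2. The direction of all 3 CD3 chain genes turned without that mouse, since Cd3e then had 0.13.

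Zap70, the kinase that binds the phosphorylated chains, has 3 probe sets. The brightest read 21.0, 48.9 and 33.5 in WT mice and 35.5, 24.1 and 32.6 in BCS mice, with overlapping groups and a log2 change of -0.10 (SE 0.29, limma's adjusted p = 0.909). Its other probe sets had log2 changes of 0.28 and 0.02, neither of which passed.

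Gata3, which acts early in T cell commitment, read 14.5, 18.1 and 12.9 in WT mice and 14.6, 16.3 and 13.4 in BCS mice, at or below 20 on every array. Its log2 change was -0.03 (SE 0.14, 95% confidence interval -0.34 to 0.28). Bcl11b, which seals T cell commitment, read 21.2, 21.2 and 19.3 in WT mice and 20.02, 23.2 and 30.7 in BCS mice at its brightest probe set. The groups overlapped, and the 4 Bcl11b probe sets had log2 changes of 0.23, 0.24, -0.14 and -0.01 without a call. At intensities this near the array median, a missed threshold does not show that Gata3 and Bcl11b did not change.

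**Figure D2:**
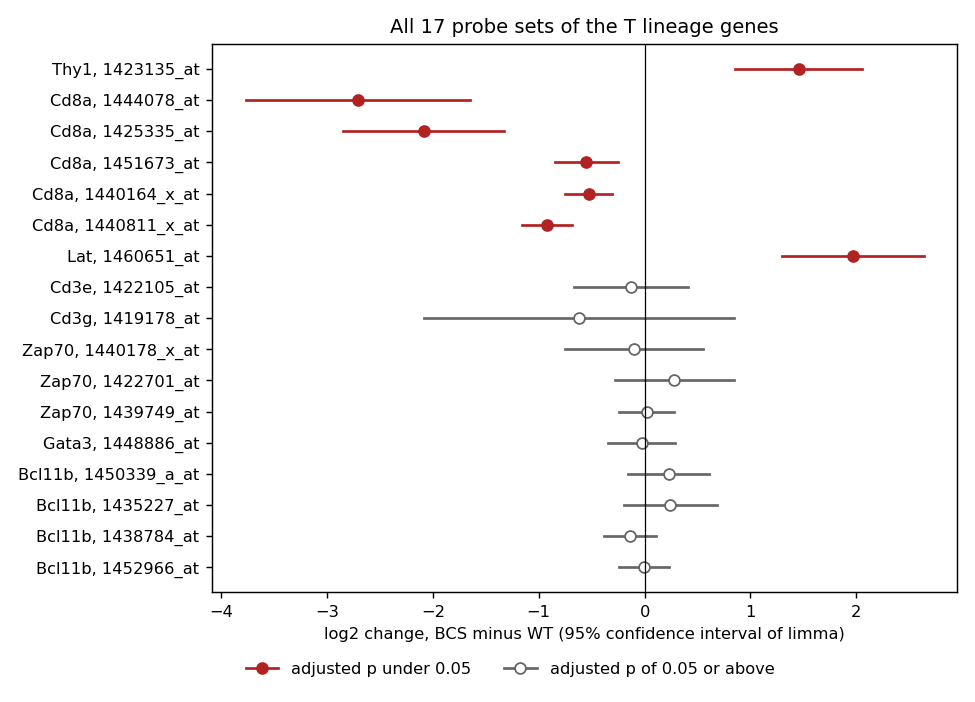
Log2 change, BCS minus WT, of each of the 17 probe sets with its 95% confidence interval from limma (n = 3 mice per genotype), filled where the adjusted p was under 0.05. The intervals of Thy1 and Lat lie above 0 and those of the 5 Cd8a probe sets below 0, while the other 10 include 0.

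WT mouse 2 was the highest array for 4 of the 17 probe sets, against 16.7% of all probe sets. So few probe sets do not set this mouse apart by the count alone. The same 4 are the brightest probe sets of Cd3e, Cd3g, Zap70 and Gata3, 4 of the 8 genes, a count without a share of all genes beside it. WT mouse 2 also had the highest sums of NK cell and myeloid markers. Its sum of plasmacytoid dendritic cell markers, 106720, was the highest too, but barely above the 106410 of WT mouse 3. For the B lineage markers given below it was the highest WT mouse, at 82737, and lay below all BCS mice. It was the highest array for 11 of 12 NK cell markers, whose summed intensity was 8582, 16192 and 11505 in WT mice and 1567, 4712 and 4624 in BCS mice. For myeloid markers it was the highest in 10 of 12, with sums of 23029, 72373 and 22777 in WT mice and 8075, 48784 and 34129 in BCS mice. Most of the NK cell sum in WT mice 1 and 3 was the 1 probe set of Klrd1, at 6901, 8110 and 7943 in WT mice and 1087, 1306 and 2430 in BCS mice. Another NK cell marker, Gzma, a granzyme of cytotoxic cells, read 885, 4690 and 2296 in WT mice and 154, 2148 and 1152 in BCS mice. Of the 12 NK cell markers 2 fell, the receptor genes Klrd1 and Klrk1, with log2 changes of -2.34 (SE 0.25) and -1.31 (SE 0.18). Of the 12 myeloid markers 1 fell, the receptor gene Csf1r, with -2.40 (SE 0.30). Of all probe sets 3.25% fell. The other NK cell and myeloid markers did not pass, and the median of each list moved from -0.94 to -0.33 and from -0.27 to -0.01 without WT replicate 2. NK1.1 was gated out in the sort, and its gene Klrb1c was not measured. None of the NK cell markers and 2 of the myeloid markers were at or below 20 on all arrays.

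BCS mouse 1, the lowest of its group for Cd3g and Cd3d, was also the lowest array in the NK cell and myeloid sums. The part of such cells in the Cd3g, Cd3d and Cd3e values was not tested. In bulk samples, fewer cells of a type and less RNA per cell cannot be told apart. Without WT replicate 2 the log2 changes of Lat and Thy1 were 2.25 and 1.75.

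Of 12 measured plasmacytoid dendritic cell markers, 9 fell, 0 rose and 3 did not pass (Spib, Tlr7 and Tlr9). Of all probe sets 3.25% fell and 2.24% rose. The sums of plasmacytoid dendritic cell markers were 95863, 106720 and 106410 in WT mice and 58778, 44407 and 49345 in BCS mice. Bst2, a surface protein used to mark these cells, had a log2 change of -2.32 (SE 0.23) and Ccr9, a homing receptor, of -3.29 (SE 0.25). None of the 12 was at or below 20 on all arrays. The median log2 change of these 12 genes was -1.65, against 0.01 over all probe sets. The B lineage markers moved the other way, with 7 of 11 higher and 0 lower, and sums of 64281, 82737 and 56584 in WT mice and 122370, 113370 and 121320 in BCS mice. Whether either shift has a part in the values of Cd8a, Lat or Thy1 was not tested.

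**Figure D3:**
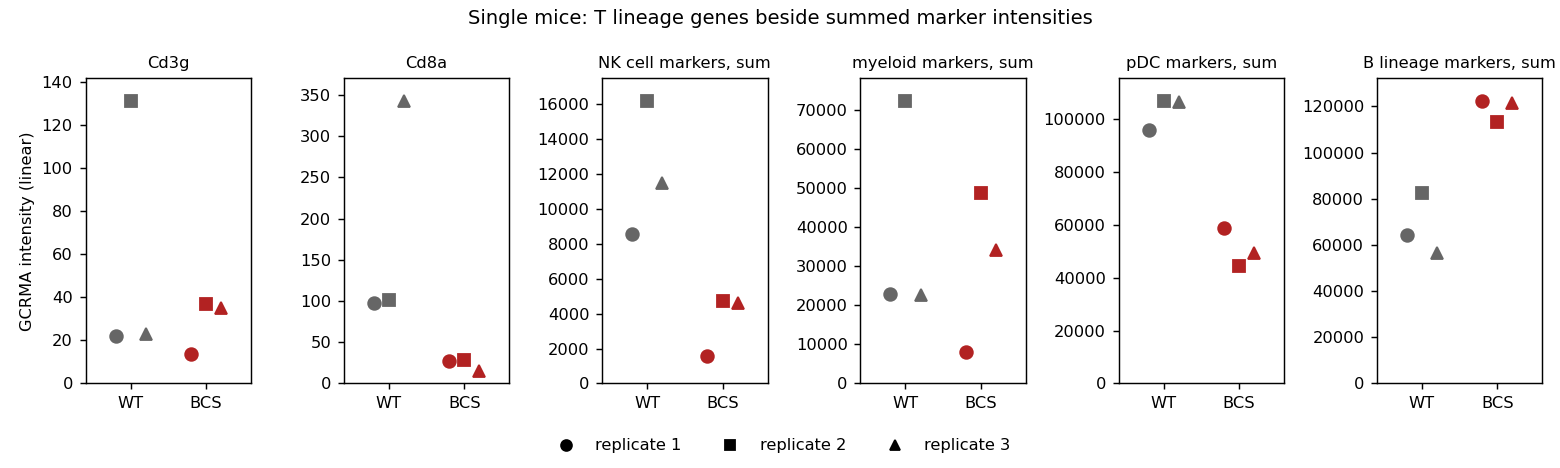
Linear intensity of Cd3g and Cd8a beside the summed intensities of NK cell, myeloid, plasmacytoid dendritic cell (pDC) and B lineage markers, 1 symbol per mouse (circle, square and triangle for replicates 1, 2 and 3), each panel on its own axis from 0. WT mouse 2 is the highest for Cd3g (131), for the NK cell (16192) and myeloid (72373) sums and, narrowly, for the pDC sum (106720). WT mouse 3 is the highest for Cd8a (343).

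Of 8 genes of the T cell receptor complex and its coreceptors, 1 rose, 1 fell and 6 did not pass. Of all probe sets 2.24% rose and 3.25% fell. Of those with a mean intensity above 50, 11.8% passed in either direction, a share that also stands beside the list counts below. The median log2 change of the 8 genes was -0.44, which became 0.17 without WT replicate 2. Besides Cd8a, the gene that passed was Cd247, the zeta chain. It read 100, 189 and 179 in WT mice and 557, 370 and 319 in BCS mice, apart between genotypes, for a log2 change of 1.42 (SE 0.29, limma's adjusted p = 0.0253). NK cells use the zeta chain too. The other 3 Cd247 probe sets were dim and did not pass, and leaving out WT replicate 1 ended the call (limma's adjusted p = 0.0545), as did WT replicate 3 (0.0517), BCS replicate 1 (0.0700) and BCS replicate 2 (0.0718). Ptcra, which encodes the chain that pairs with a new TCR beta chain in thymocytes, had a log2 change of 0.56 (SE 0.18, limma's adjusted p = 0.131).

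Of 11 measured T cell surface receptors, 1 rose and 1 fell, where 2.24% and 3.25% of all probe sets did. Opposite to Thy1, Cd7, an immunoglobulin family protein of T and NK cells and of early progenitors, read 1330, 1917 and 1762 in WT mice and 372, 351 and 392 in BCS mice. The groups were far apart against their spread, and the log2 change was -2.15 (SE 0.16, limma's adjusted p = 0.000166). The median of the 11 genes was -0.23.

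Among 18 measured genes of proximal T cell receptor signalling, 2 rose and 1 fell, where 2.24% and 3.25% of all probe sets did. The median log2 change of the 18 genes was 0.07. Next to Lat, the riser was Rasgrp1, an exchange factor that loads Ras with GTP after phospholipase C gamma has acted. It read 27.8, 168 and 37.6 in WT mice and 578, 404 and 529 in BCS mice. WT mouse 2 was again the highest WT array, yet all BCS mice lay above it. The log2 change was 3.12 (SE 0.56, limma's adjusted p = 0.0136), and 3.90 without WT replicate 2. It was lost as a call without WT replicate 3 (limma's adjusted p = 0.0551) or BCS replicate 3 (0.0533), and the other 3 Rasgrp1 probe sets, at most 25.9 on any array, did not pass.

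Fyn, a Src family kinase that shares substrates with Lck, fell at both of its probe sets. The brighter read 5934, 8273 and 7925 in WT mice and 3220, 2913 and 3657 in BCS mice, without overlap, for a log2 change of -1.17 (SE 0.14, limma's adjusted p = 0.00156), and the other had -1.38. Lcp2, the adaptor SLP-76 that joins Lat, had a log2 change of -0.43 (SE 0.52, limma's adjusted p = 0.741) and was highest in WT mouse 2, at 211. Without WT replicate 2 the list had 3 genes higher and 1 lower, the third being Ptpn22, a phosphatase that acts on Lck and Zap70, at a log2 change of 0.85 (limma's adjusted p = 0.0449).

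The genes that do the corresponding work in B cells and myeloid cells were 1 higher and 3 lower among 9 measured. Of all probe sets 2.24% rose and 3.25% fell. The median log2 change of the 9 genes was -0.12. Lat2, the relative of Lat used by B and myeloid cells, went opposite to Lat. It read 111, 78.3 and 113 in WT mice and 37.2, 37.7 and 25.3 in BCS mice, apart between genotypes, for a log2 change of -1.57 (SE 0.23, limma's adjusted p = 0.00474). Its other 2 probe sets, at most 31.2 on any array, did not pass. Blk, a Src family kinase of B cells, had -1.94 (SE 0.33) and Fgr, one of myeloid cells, -1.20 (SE 0.17). Plcg2, the phospholipase downstream of the B cell receptor, rose by 0.63 on the log2 scale (SE 0.07). Syk, the relative of Zap70, had a log2 change of -0.22 (SE 0.11, limma's adjusted p = 0.362) and did not pass. Lyn was not measured.

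Of 13 measured T lineage transcription factors, 2 rose and 1 fell, where 2.24% and 3.25% of all probe sets did. The median log2 change of the 13 genes was -0.03. Hes1, a target of Notch, rose by 0.86 on the log2 scale (SE 0.15, limma's adjusted p = 0.0136), which no longer passed when WT replicate 3 (0.0578) or BCS replicate 2 (0.0623) was left out. Ets1, a factor of both T and B cells, rose by 0.64 on the log2 scale (SE 0.09, limma's adjusted p = 0.00465) and passed at 3 of its 4 probe sets. Notch1, the receptor that starts the T cell program, had a log2 change of -0.52 (SE 0.12, limma's adjusted p = 0.0481), a call kept in 1 of the 6 fits with an array left out, that without BCS replicate 1. Lef1, the relative of Tcf7, had a log2 change of 0.20 (SE 0.38, limma's adjusted p = 0.846).

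**Figure D4:**
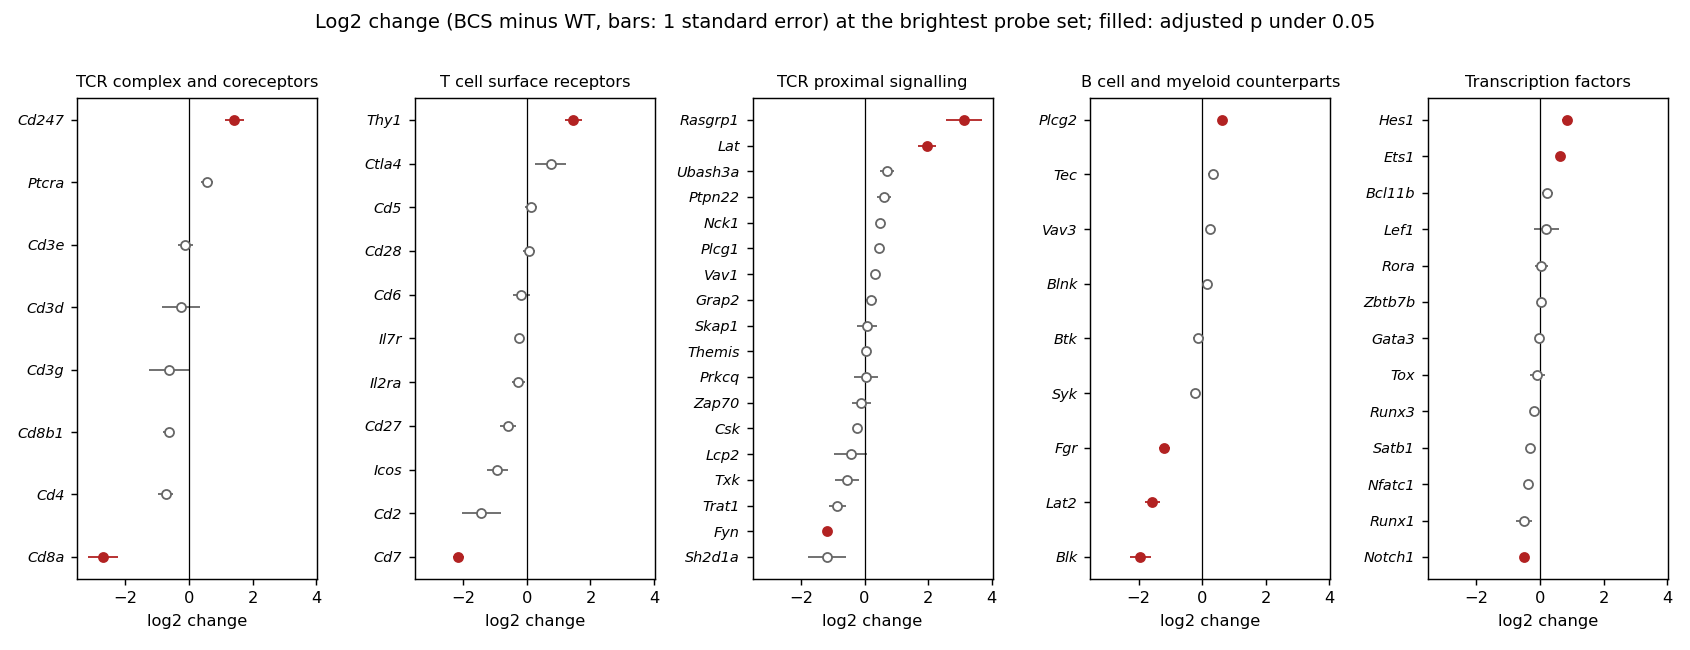
Log2 change, BCS minus WT, at the brightest probe set of each measured gene of 5 lists, with bars of 1 SE from limma (n = 3 mice per genotype) and filled symbols where the adjusted p was under 0.05. Genes that passed lie on both sides of 0 in each list, with Cd247, Thy1, Rasgrp1 and Lat on the right and Cd8a, Cd7, Fyn, Lat2 and Blk on the left.

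The sorted population was checked on the genes of its gate. Ptprc, which encodes B220, had a log2 change of -0.40 (SE 0.07, limma's adjusted p = 0.0101, and 0.0710 with eBayes without trend). Kit and Cd93 had log2 changes of -0.01 and 0.29 and did not pass. Pou2af1, the mouse gene of OBF1, had a log2 change of 0.99 (SE 0.23, limma's adjusted p = 0.0436). This call was lost in 4 of the 6 fits with an array left out, those without WT replicate 1 (limma's adjusted p = 0.0599), BCS replicate 1 (0.105), BCS replicate 2 (0.132) or BCS replicate 3 (0.114), and with eBayes without trend (0.0962). Whether the probe set of Pou2af1 reads the human cDNA is not known, so it does not check the genotype labels. By qPCR with primers for mouse OBF1, the study reports a robust rise of the endogenous gene in BCS EPLMs.

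The 5 genes on each side of every member, in RefSeq order, gave 93 distinct measured genes, of which 6 rose and 8 fell at the brightest probe set. Of all probe sets 2.24% rose and 3.25% fell, and of those with a mean intensity above 50, 11.8% passed in either direction. Beside Thy1 on chromosome 9, the next gene, Usp2, which encodes a ubiquitin protease, rose as well. It read 414, 385 and 397 in WT mice and 1184, 996 and 861 in BCS mice, for a log2 change of 1.33 (SE 0.16, limma's adjusted p = 0.00152). In the same window Oaf had a log2 change of -0.82 and Cbl, a ubiquitin ligase that turns off receptor signalling, of -0.72, both of which passed. The call of Oaf was lost without any 1 of the 6 arrays (limma's adjusted p from 0.0542 to 0.113).

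Around Lat on chromosome 7 none of the 10 genes rose and Atp2a1, a calcium pump of muscle, had a log2 change of -1.19 (SE 0.22), a call lost without BCS replicate 2 (limma's adjusted p = 0.0637) or BCS replicate 3 (0.0633). Around Cd8a only Reep1, the fifth gene away, passed. It read 112, 111 and 211 in WT mice and 22.1, 19.5 and 22.4 in BCS mice, for a log2 change of -2.64 (SE 0.26, limma's adjusted p = 0.000601), and WT mouse 3 was the highest array as it was for Cd8a. Around Cd3e, where Cd3d and Cd3g lie on one side, Scn4b, a sodium channel subunit, rose by 2.41 on the log2 scale (SE 0.31) and Tmprss4, a membrane protease, by 0.89 (SE 0.16), while Cd3e itself did not pass. Tmprss4 read 14.0, 13.2 and 15.96 in WT mice, and its call was lost with a floor at 20 (log2 change 0.45) and without WT replicate 1 (limma's adjusted p = 0.0533), WT replicate 2 (0.0586) or BCS replicate 3 (0.0576). Around Cd3g none passed. Around Lck, Zap70, Gata3, Tcf7 and Bcl11b, the neighbours that passed ranged from Inpp4a, with a log2 change of -0.85, to Cdkn2aipnl, with 0.66.

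**Figure D5:**
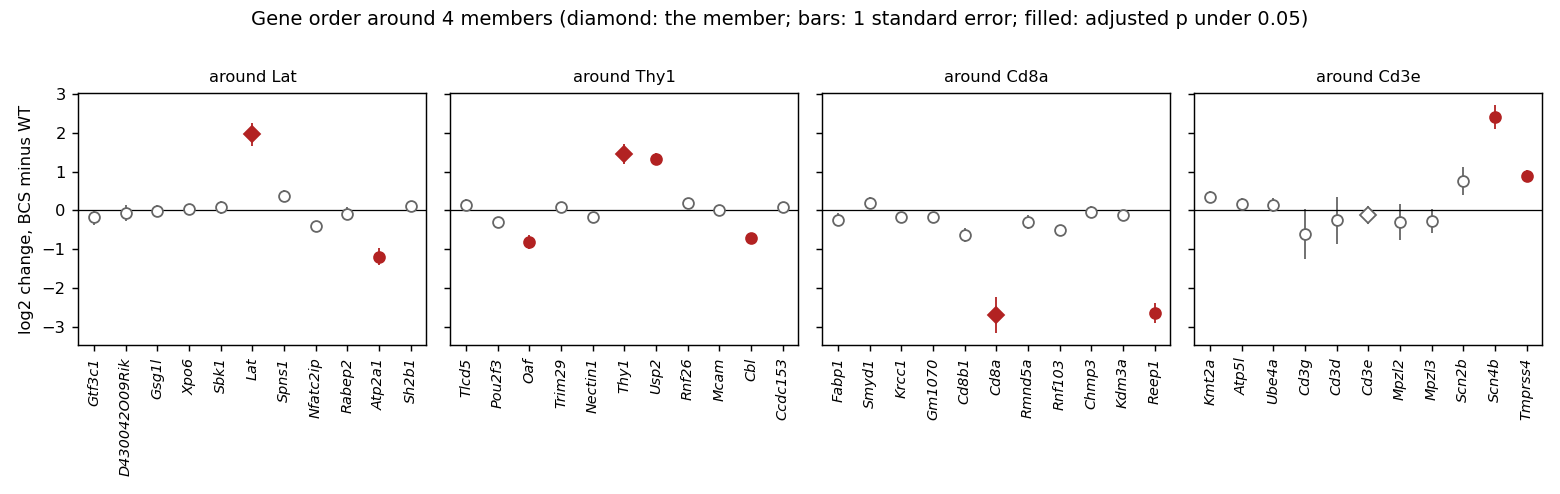
Log2 change, BCS minus WT, of Lat, Thy1, Cd8a and Cd3e (diamonds) and of the 5 measured genes on each side in RefSeq order (circles), with bars of 1 SE from limma (n = 3 mice per genotype) and filled symbols where the adjusted p was under 0.05. Usp2 (1.33) lies beside Thy1, and Reep1 (-2.64) is the fifth gene from Cd8a.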

How the data were processed

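RNA of sorted EPLMs from 3 WT and 3 BCS mice was hybridized, with 1 Mouse 430v2 GeneChip for each mouse. The labels state labelling of 1 cycle and the methods of 2 cycles. The deposited values are linear intensities, normalized by the authors with GCRMA (version not given in the sources used here), for 45037 probe sets and 64 control features, and the methods name Expressionist for analysis. The 6 EPLM arrays share 1 distribution of values, with a median of 20, so differences are relative to it. The 7 large preB arrays were not used, since their values do not follow the probe set names (r with EPLM levels 0.0944 over probe sets and 0.978 over control features, with probe sets not independent replicates). Values of replicate arrays correlated with r from 0.993 to 0.995 within a genotype and from 0.985 to 0.988 between genotypes.

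After adding 1, intensities were turned to log2 and fitted with lmFit and eBayes (trend) of limma 3.58.1 under R 4.3.3, with Benjamini-Hochberg adjusted p over all probe sets. Of these, 34945 have 1 symbol, 932 several and 9160 none. A gene was read at its brightest probe set with 1 symbol. In all, 1156 probe sets passed with group medians at least 2-fold apart, 415 higher and 741 lower. At an unadjusted p under 0.05 there were 8276 probe sets and 7 of the 17 members. The fit was tested on simulated data. No build is stated with the data, so gene order and promoters come from RefSeq.

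The members and lists were chosen with earlier results of these data known. Named were all members, from each list up to 4 genes that passed, by size of change, genes fixed for their role (Cd3d, Cd247, Ptcra, Cd4, Cd8b1, Lat2, Syk, Fyn, Lcp2, Lef1, Notch1, Pou2af1 and the gate genes) and neighbours that passed. Gzma and Ptpn22 were named after their values were seen, and some items are not reported here. Alternatives were the methods' t-test, other variance models, arrayWeights, a filter on dim probe sets (above 50 on at least 3 arrays), quantile normalization, centring on brighter probe sets, an offset of 16 or a floor at 20, the replicate block, stricter or no thresholds, other choices of probe set and leaving out each array.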

Additional observations from a re-analysis of the deposited data

How the results depend on the processing

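The calls of Lat, Thy1 and Cd8a at the brightest probe set held with eBayes without trend or with robust variances. They also held with arrayWeights, the filter on dim probe sets and an offset of 16. Quantile normalization and centring on brighter probe sets kept them too. The 6 arrays already share the same distribution, so neither step could change the values much. By the methods' t-test with the Benjamini-Hochberg adjustment, 174 probe sets changed on log2 values and 106 on linear values, with 0 member probe sets and 0 member genes in both. At the methods' own threshold, an unadjusted p under 0.01 with medians 2-fold apart, that test gave 864 probe sets on log2 values, with 2 members (Lat and 1 of Cd8a), and 731 on linear values, with 1 member (Thy1). A floor at 20 gave 480 changed probe sets and 0 member probe sets and 0 member genes. It made 20077 probe sets constant, and with those left out, a choice made after seeing the data, there were 1034 changed probe sets, 4 member probe sets and 3 member genes. The filter on dim probe sets left 4 member probe sets that passed, as the others were not tested. At an adjusted p under 0.01, 3 member probe sets and 1 member gene, Lat, passed. With no fold minimum 2472 probe sets passed in place of 1156.

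With 1 array left out, 904 to 1149 probe sets changed, and 5 to 6 member probe sets and 2 to 3 member genes passed. Genes without a call turned in sign over those fits, with log2 changes from -0.36 to 0.13 for Cd3e, from -1.05 to 0.21 for Cd3g, from -0.41 to 0.19 for Zap70, from -0.13 to 0.10 for Gata3, from -0.77 to 0.53 for Cd3d, from -0.82 to 0.12 for Lcp2, from -0.28 to 0.62 for Lef1 and from -0.05 to 0.03 for Kit. Zap70 had 0.07 as the mean over its probe sets. The cause was not tested. With the replicate number as a block, 1116 probe sets changed and 6 member probe sets and 3 member genes passed. Same-numbered mice did not deviate together (r = -0.0002, 0.0675 and 0.0585 over probe sets), so the numbers were not taken as pairs. Signal over background limits the dim genes, since for 5 of the 8 genes no probe set was above 50 on at least 3 arrays.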
